A study of Mus musculus with 36 samples.

Results

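A set of 5 mouse genes known to respond to androgen in the kidney, out of 55536 annotated genes, was followed through every group of the series: Kap, Odc1, Gusb, Cyp7b1 and Akr1c18. They were chosen by name, with earlier results of these data known, and matched by symbol and gene identifier in each library's counts. All 5 were among the 18180 genes that passed the filter on low counts. The libraries came from kidneys of ob/ob mice (ob) and of normal C57BL/6 mice (b6j), with the strain given as C57BL/6 for both. Each genotype was represented by an untreated control group, a group given CdCl2 at 0.5 mg/kg and a group given 2 mg/kg, with 6 libraries in each of the 6 groups. The ob/ob genotype is a mutation of the leptin gene carried in every cell, so these mice are obese and lack leptin throughout life. The route, the length of treatment, the age and the sex of the mice are not given in the sources used here, and neither are androgen levels. The labels number the libraries of a group but do not say that each came from a different mouse, so the p-values below measure the spread between these libraries.

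Androgens such as testosterone and dihydrotestosterone are steroid hormones that change the transcription of their target genes. In the mouse the proximal tubule is their main target in the kidney, and many transcripts there differ between the sexes. Kap (kidney androgen-regulated protein) and Odc1 (ornithine decarboxylase, the rate-limiting enzyme of polyamine synthesis) are the classic androgen-raised transcripts of this tissue. Gusb encodes beta-glucuronidase, a lysosomal enzyme that removes glucuronic acid from sugars and conjugates and that androgen raises in mouse kidney. Cyp7b1 encodes a hydroxylase of oxysterols and of steroids, among them androgen metabolites. Akr1c18 encodes an aldo-keto reductase that inactivates progesterone. The label of the set, which also counts Cyp7b1 and Akr1c18 as androgen-responsive, was taken as given. It does not rest on these data, because no library came from mice given or deprived of androgen.

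On GRCm38, Kap (ENSMUSG00000032758) lies on the minus strand of chromosome 6 from 133849851 to 133853762, and Odc1 (ENSMUSG00000011179) on the plus strand of chromosome 12 from 17544794 to 17551505. Gusb (ENSMUSG00000025534) lies on the minus strand of chromosome 5 from 129989011 to 130003049. Cyp7b1 (ENSMUSG00000039519) lies on the minus strand of chromosome 3 from 18071950 to 18243338. Akr1c18 (ENSMUSG00000021214) lies on the minus strand of chromosome 13 from 4132615 to 4150654. All are protein-coding, and counts were taken over their exons, which add up to 707 bases for Kap, 3405 for Odc1, 4548 for Gusb, 2166 for Cyp7b1 and 1207 for Akr1c18. None overlaps a gene on the opposite strand. Odc1 holds the small gene Gm22748 on its own strand, which had 732 counts over the 36 libraries, and Cyp7b1 holds Gm23686, which had 0. Akr1c18 has close copies in the Akr1c family. The counts were made without the featureCounts option that counts reads mapping to several places. Reads that match several copies may therefore be missing from its level, which is less certain for that reason.

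Of the 5 genes, 4 had an entry in the RefSeq promoter table of GRCm38.p6, all but Cyp7b1. The bases just before the annotated gene are shown for the most abundant of the 5, Kap, and for the gene with the widest gap between untreated genotypes, Akr1c18. They lie at chr6:133853763-133853917 and chr13:4150655-4150896, both on the minus strand, and read 5′ to 3′.
Kap: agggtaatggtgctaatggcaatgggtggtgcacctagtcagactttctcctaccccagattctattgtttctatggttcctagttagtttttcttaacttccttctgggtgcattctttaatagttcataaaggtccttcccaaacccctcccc
Akr1c18: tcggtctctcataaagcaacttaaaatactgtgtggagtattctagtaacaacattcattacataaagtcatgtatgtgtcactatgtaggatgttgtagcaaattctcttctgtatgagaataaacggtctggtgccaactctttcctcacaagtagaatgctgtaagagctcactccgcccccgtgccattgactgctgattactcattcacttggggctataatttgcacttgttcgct
No capitals are used, because none of the motifs searched fell inside these letters. The windows of 250 bases before the RefSeq start of Kap, Odc1, Gusb and Akr1c18 were searched on both strands for AGAACA followed by 3 bases of any kind and TGTTCT, the inverted repeat of an androgen response element. That motif was in none of the 4, and 0.00913% of the 32851 windows of this length in the table held it. The looser form, GNACA with 3 bases and TGTNC, was in none of the 4 either, against 0.387% of windows, and neither was the single arm AGAACA, which is part of the first motif and was in 16.1% of windows. TATAAA, the core of a TATA box, was found only in Kap, at bases -31 to -26 from the RefSeq start and so outside the stretch shown, and was in 12.4% of windows. A missing match says only that these letters are not in these windows.

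The 36 libraries held 26783936 to 37244058 counted reads. Levels are given as CPM, the count scaled to the size of its library, in which 3 counts are worth 0.0805 to 0.112, and differences as log2 ratios ± standard error from edgeR's quasi-likelihood test with Benjamini-Hochberg adjustment over the 18180 genes, called at an adjusted p below 0.05. The libraries read as male and as kidney, with the Y-linked Ddx3y at 37.4 to 98.7 CPM, the X-inactivation transcript Xist at most at 1.83 CPM, and the summed level of 10 early proximal tubule markers at 3274 CPM or more. The 3 genes listed as raised by cadmium (metallothioneins Mt1 and Mt2, and Hmox1) were each called higher in both dose groups of both genotypes. Among the ob libraries at 2 mg/kg, replicate 5 stood apart, with the summed level of 8 tubular injury markers at 16425 CPM. Among the untreated b6j libraries, replicate 4 held 181 CPM of the injury marker Havcr1, against 2.15 to 13 CPM in the other 5. Among the b6j libraries at 2 mg/kg, replicate 3 held adrenal cortex transcripts, with 70.8 CPM summed over 4 of its steroid enzymes against at most 2.99 CPM in the other 35 libraries. Many member results at 2 mg/kg and the list counts that moved are given also without the library concerned.

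**Figure D1:**
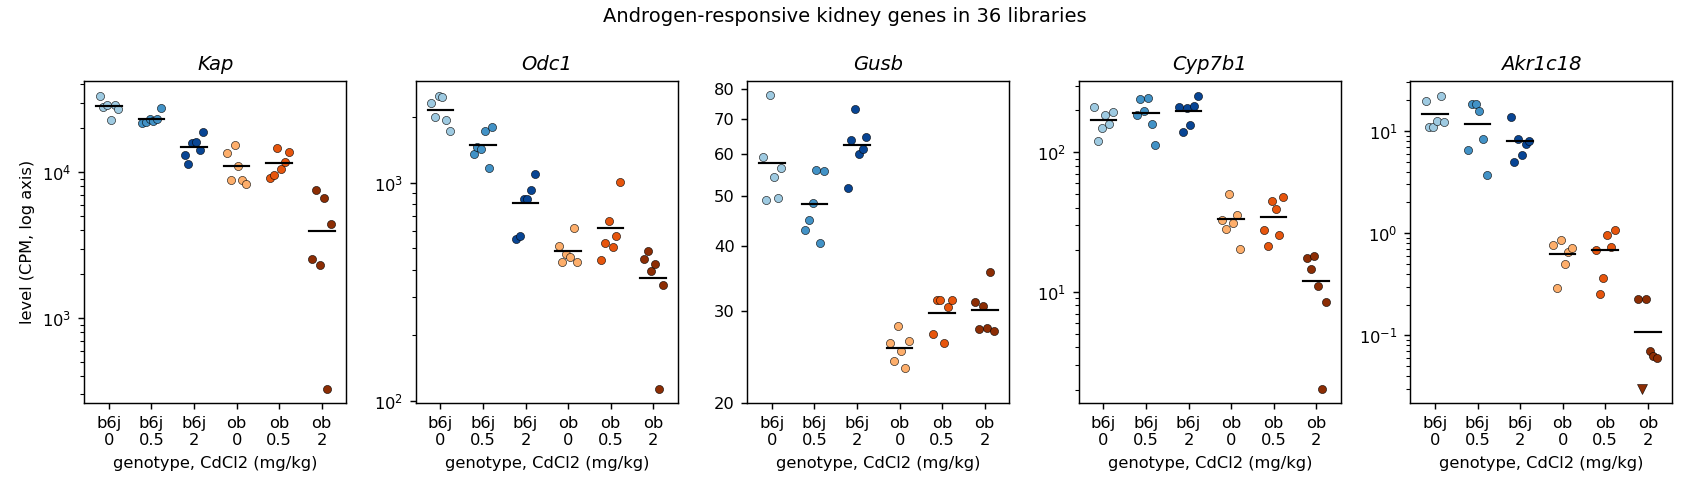
Level in CPM (log axis) of Kap, Odc1, Gusb, Cyp7b1 and Akr1c18 in each of the 36 libraries (points), by genotype and CdCl2 dose in mg/kg. Lines mark the mean of 6 libraries and the triangle at the bottom is a library with 0 counts of Akr1c18. All 6 untreated ob libraries lie below all 6 untreated b6j libraries for each gene.

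Before any cadmium, all 5 genes were lower in ob than in b6j kidneys, with no overlap between the groups for any of them. Mean levels were 2.26-fold lower for Gusb, 2.56-fold for Kap, 4.42-fold for Odc1, 5.14-fold for Cyp7b1 and 23.3-fold for Akr1c18. Over all tested genes 8.93% were called lower in this comparison. The share of all tested genes without overlap is not given, here or below, so a lack of overlap only describes these libraries. The median log2 difference of the 5 was -2.14, beside 0.026 over all tested genes. All 5 calls were kept under each of the 44 alternatives of processing or left-out libraries. In whole kidney, fewer cells of a type and less RNA per cell cannot be told apart.

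Kap ranged from 22922 to 33501 CPM in untreated b6j kidneys, with a median of 28473 CPM. In untreated ob kidneys it ranged from 8316 to 15482 CPM, with a median of 9971 CPM. The highest ob library was thus below the lowest b6j library, and the log2 difference was -1.36 ± 0.33 (adjusted p = 0.00363, edgeR). Kap was so abundant that it took 2.69% of the counted reads in untreated b6j kidneys and 1.15% in untreated ob kidneys on average.

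Odc1 stood at 1727 to 2499 CPM in untreated b6j libraries, with a median of 2156 CPM, and at 431 to 622 CPM in untreated ob libraries, with a median of 463 CPM. These ranges are far apart, and the log2 difference was -2.14 ± 0.23 (adjusted p = 1.14e-08, edgeR). Gusb stood at 49 to 78.1 CPM in untreated b6j libraries (median 55.3 CPM) and at 23.4 to 28.1 CPM in untreated ob libraries (median 25.6 CPM). This gap was the smallest of the 5 in size, but the libraries within each group lay close together, and the log2 difference was -1.18 ± 0.10 (adjusted p = 7.04e-11, edgeR).

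The steroid enzymes Cyp7b1 and Akr1c18 had the widest gaps. Cyp7b1 ranged from 121 to 211 CPM in untreated b6j kidneys, with a median of 172 CPM, and from 20.4 to 49.9 CPM in untreated ob kidneys, with a median of 32.1 CPM. The log2 difference was -2.36 ± 0.29 (adjusted p = 2.39e-07, edgeR). Akr1c18 ranged from 10.9 to 22.2 CPM in untreated b6j kidneys, with a median of 12.3 CPM, whereas the 6 untreated ob libraries lay between 0.29 and 0.866 CPM, with a median of 0.68 CPM. Each of those ob libraries still held 10 to 28 counts, above the 3 counts below which a level is read as near absent. The log2 difference was -4.54 ± 0.39 (adjusted p = 1.06e-10, edgeR).

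Levels can be compared between genes only per length of exon. On that scale the order in untreated b6j kidneys was Kap, at 39985 CPM per kilobase, then Odc1 at 633, Cyp7b1 at 78.4, Gusb at 12.7 and Akr1c18 at 12.2. In untreated ob kidneys Kap led at 15606 CPM per kilobase, followed by Odc1 at 143, Cyp7b1 at 15.3, Gusb at 5.62 and Akr1c18 at 0.522. The order was the same in both genotypes, with Gusb and Akr1c18 at nearly the same level in b6j and well apart in ob.

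In b6j kidneys at 0.5 mg/kg no member was called, and 0.325% of tested genes were called in either direction (0.297% higher and 0.0275% lower). At an unadjusted p below 0.05 there were 2 members, Odc1 and Gusb, and DESeq2 called 0. Odc1 stood at 1165 to 1801 CPM (median 1438 CPM), below every untreated b6j library in 5 of 6 libraries, and the log2 difference was -0.54 ± 0.22 (adjusted p = 0.621, edgeR). With limma-voom and sample weights it was called (adjusted p = 0.0467), as it was in a fit of the 2 groups alone (adjusted p = 0.0258), and its adjusted p ran from 0.0258 to 0.929 over 44 alternatives. Gusb stood at 40.5 to 55.9 CPM (median 46.8 CPM), at -0.26 ± 0.10 (adjusted p = 0.505, edgeR).

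The other members overlapped their untreated b6j libraries at this dose. Kap stood at 21786 to 27477 CPM, with a median of 22720 CPM and 3 of 6 libraries below every untreated one (log2 difference -0.28 ± 0.32). Cyp7b1 stood at 113 to 244 CPM with a median of 192 CPM (log2 difference 0.16 ± 0.27). Akr1c18 varied most within the group, from 3.73 to 18.3 CPM with a median of 12 CPM (log2 difference -0.32 ± 0.31). All 3 had an adjusted p of 1 (edgeR).

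At 2 mg/kg the 5 genes parted in b6j kidneys: Kap, Odc1 and Akr1c18 fell, while Gusb and Cyp7b1 were not called. That is 3 of 5 called lower, against 11.4% of tested genes (23.7% in either direction), and the median log2 difference of the 5 was -0.87, beside 0.017 over all genes. Odc1 lay between 552 and 1092 CPM with a median of 842 CPM, below every untreated b6j library. It fell 2.68-fold (log2 difference -1.42 ± 0.22, adjusted p = 7.49e-06, edgeR) and was called under all 44 alternatives.

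Kap fell 1.9-fold to between 11421 and 18869 CPM (median 14964 CPM), again with no overlap with untreated b6j libraries. The log2 difference was -0.92 ± 0.33 (adjusted p = 0.0368, edgeR). This call was lost in 9 of 44 alternatives: with libraries scaled by size only, and without replicate 1, 2, 3 or 5 of either group, at adjusted p of 0.0517 to 0.0755 (range over all 44, 8.89e-06 to 0.0755). Akr1c18 fell 1.83-fold to between 4.93 and 13.7 CPM (median 7.72 CPM), with 5 of 6 libraries below every untreated b6j library (log2 difference -0.87 ± 0.32, adjusted p = 0.0425, edgeR). Its call was lost in 8 of 44 alternatives, at adjusted p of 0.0621 to 0.125 (range over all 44, 0.0033 to 0.125). These were scaling by size only, control replicates 1 and 5, and replicates 2 to 6 of the treated group. Adrenal transcripts were high in treated replicate 3, where Akr1c18, which the mouse adrenal cortex also makes, stood at 8.34 CPM, inside the range of its group. Without that library the log2 difference was -0.89 (adjusted p = 0.0621).

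Cyp7b1 stood at 139 to 254 CPM in b6j kidneys at 2 mg/kg, with a median of 210 CPM. The treated and untreated ranges overlapped, and the log2 difference was 0.21 ± 0.27 (adjusted p = 0.633, edgeR). Gusb stood at 51.8 to 73.3 CPM (median 62.7 CPM), also overlapping the untreated libraries (log2 difference 0.11 ± 0.10, adjusted p = 0.432, edgeR).

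Set directly against each other, the 2 doses in b6j kidneys differed for Odc1 and Gusb, while 17.3% of tested genes were called (8.78% higher and 8.51% lower). This comparison shares its treated libraries with those above. Odc1 was lower at 2 than at 0.5 mg/kg, with no overlap (log2 difference -0.88 ± 0.22, adjusted p = 0.0038, edgeR). Gusb was higher at 2 mg/kg, with 5 of 6 libraries above every library at 0.5 mg/kg (log2 difference 0.38 ± 0.10, adjusted p = 0.00524, edgeR). Kap did not overlap between the doses but was not called (log2 difference -0.65 ± 0.33, adjusted p = 0.181, edgeR). Without ob replicate 5 at 2 mg/kg, a library outside this comparison that enters the shared estimate of spread, it was called (-0.65 ± 0.19, adjusted p = 0.00983, range over 44 alternatives 0.000326 to 0.289).

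In ob kidneys at 0.5 mg/kg no member was called, and 4.28% of tested genes were (3.55% higher and 0.737% lower). Of the 5, 1 (Gusb) had an unadjusted p below 0.05, and DESeq2 and limma-voom called 0. Kap stood at 9117 to 14557 CPM (median 11214 CPM), Odc1 at 443 to 1010 CPM (median 549 CPM) and Gusb at 26.1 to 31.6 CPM (median 31.1 CPM). Cyp7b1 stood at 21.4 to 47.5 CPM (median 33.7 CPM) and Akr1c18 at 0.254 to 1.08 CPM (median 0.707 CPM). All 5 ranges overlapped those of untreated ob kidneys. Every log2 difference was above 0, from 0.06 ± 0.28 for Cyp7b1 to 0.35 ± 0.22 for Odc1, with adjusted p of 0.259 to 0.964 (edgeR). Gusb was at 0.22 ± 0.10 (adjusted p = 0.259, edgeR), with 4 of 6 libraries above every untreated ob library. In a fit of the 2 groups alone it was called (adjusted p = 0.0461, range over 44 alternatives 0.0461 to 0.488).

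Kap, Cyp7b1 and Akr1c18 fell in ob kidneys at 2 mg/kg, and all 6 libraries of that group lay below all 6 untreated ob libraries for each of the 3. Over all tested genes 18% were called lower and 38.4% in either direction. The median log2 difference of the 5 members was -1.47, beside 0.011 over all genes. The set that fell was not that of b6j kidneys: Kap and Akr1c18 were called in both genotypes, Odc1 in b6j and not in ob (interaction adjusted p = 0.0743, edgeR), and Cyp7b1 in ob and not in b6j (interaction adjusted p = 0.0193, edgeR). The dose comparisons share their untreated libraries with the comparison of untreated genotypes.

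Kap ranged from 329 to 7530 CPM in ob kidneys at 2 mg/kg, with a median of 3478 CPM. The lowest value was that of replicate 5, and the next lowest was 2308 CPM. Kap fell 2.78-fold in mean level (log2 difference -1.48 ± 0.33, adjusted p = 0.000586, edgeR), and without replicate 5 the log2 difference was -1.23 ± 0.21 (adjusted p = 9.98e-06). In a fit of the 2 ob groups alone the call was lost (adjusted p = 0.0552, range over 44 alternatives 1.23e-06 to 0.0552).

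Cyp7b1 ranged from 2.03 to 18 CPM with a median of 12.9 CPM, against 20.4 to 49.9 CPM in untreated ob kidneys. It fell 2.77-fold in mean level (log2 difference -1.47 ± 0.29, adjusted p = 0.000125, edgeR). Without replicate 5, which again held the lowest value, the log2 difference was -1.24 ± 0.23 (adjusted p = 3.9e-05). Akr1c18 fell to between 0 and 0.229 CPM, with a median of 0.0662 CPM and 21 counts over the 6 libraries, beside 123 counts in untreated ob kidneys. Each library then held 0 to 8 counts of it, and the median lay below the level of 3 counts. The fitted log2 difference of -2.45 ± 0.55 (adjusted p = 0.000548, edgeR) thus depends on few reads. Without replicate 5 it was -2.32 ± 0.62 (adjusted p = 0.00278). With limma-voom and sample weights the call was lost (log2 difference -2.76, adjusted p = 0.219, range over 43 alternatives 3.04e-06 to 0.219). In a fit of the compared ob groups alone Akr1c18 did not pass the filter on low counts.

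Odc1 ranged from 114 to 484 CPM in ob kidneys at 2 mg/kg (median 408 CPM), with replicate 5 lowest and 4 of 6 libraries below every untreated ob library. The log2 difference was -0.41 ± 0.22 (adjusted p = 0.135, edgeR), or -0.22 ± 0.16 without replicate 5 (adjusted p = 0.318). Gusb ranged from 27.5 to 35.7 CPM (median 29.3 CPM), with its highest value in replicate 5. Its log2 difference of 0.24 ± 0.10 lay at the threshold (adjusted p = 0.0503, edgeR). It was called in 25 of 44 alternatives and had an adjusted p of 0.12 without replicate 5 (range over 44, 0.0228 to 0.192).

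Between 2 and 0.5 mg/kg in ob kidneys 4 of the 5 were called lower, against 14.5% of tested genes (29.7% in either direction), and Gusb was not called (log2 difference 0.02 ± 0.10, adjusted p = 0.895). The treated libraries are those of the comparisons above. Kap was at -1.55 ± 0.33, Cyp7b1 at -1.53 ± 0.29 and Akr1c18 at -2.56 ± 0.55, each with no overlap between the doses (adjusted p = 0.000676, 0.000176 and 0.000659, edgeR). Odc1 was at -0.76 ± 0.22 (adjusted p = 0.0081, edgeR), with 4 of 6 libraries below every library at 0.5 mg/kg. Without ob replicate 5 at 2 mg/kg Kap was at -1.29 ± 0.21, Cyp7b1 at -1.28 ± 0.23 and Akr1c18 at -2.41 ± 0.62. Odc1 was then at -0.56 ± 0.17, and all 4 were still called (adjusted p of 0.0105 or less, edgeR). In a fit of the 2 groups alone Odc1 and Kap were not called (adjusted p = 0.115 and 0.0672, the highest over their 44 alternatives; the lowest were 0.00396 and 8.34e-07). With limma-voom Akr1c18 was not called (adjusted p = 0.24, range over 43 alternatives 2.38e-06 to 0.24).

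**Figure D2:**
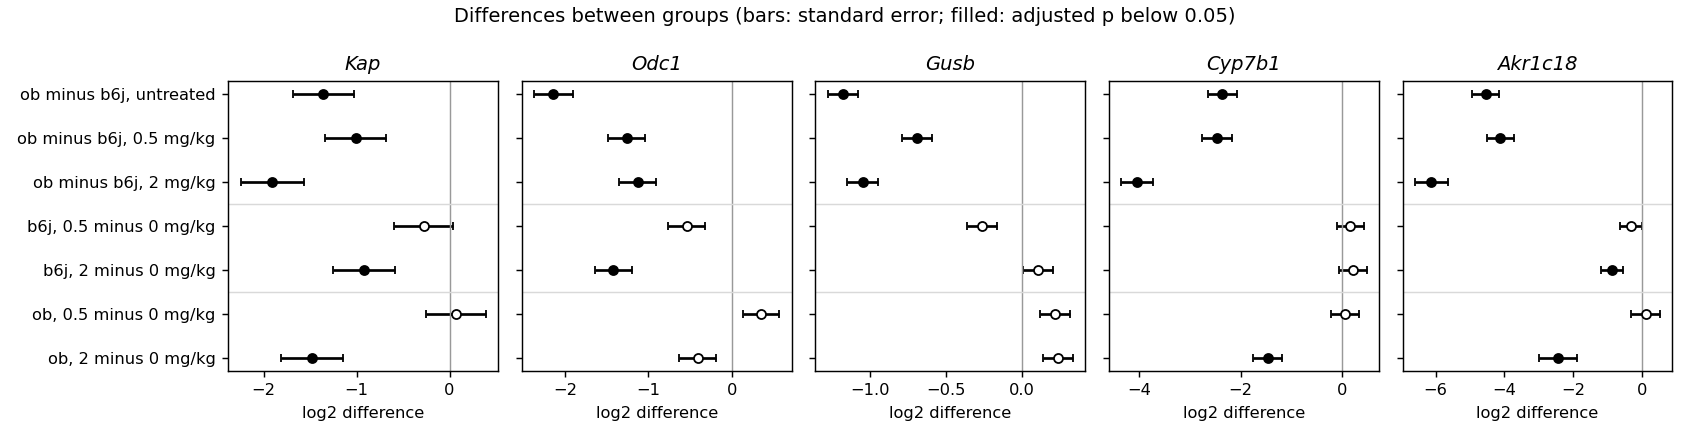
Log2 differences of the 5 genes (points) with their standard errors (bars) for the 3 comparisons of ob with b6j and the 4 comparisons of a dose with untreated libraries. Filled points passed an adjusted p of 0.05. The points of the 3 upper comparisons are filled for all 5 genes, while among the dose comparisons only those at 2 mg/kg hold filled points.

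The ob kidneys remained below b6j kidneys at both doses. At 0.5 mg/kg all 5 genes were called lower (5.06% of tested genes were, 4.58% were higher and 9.64% changed either way), from -0.69 ± 0.10 for Gusb to -4.12 ± 0.39 for Akr1c18 on the log2 scale, and at 2 mg/kg all 5 were again (8.53% of tested genes, with 7.9% higher). At each dose all 6 ob libraries lay below all 6 b6j libraries for each gene. For the higher dose the values were -1.91 ± 0.34 for Kap, -1.13 ± 0.22 for Odc1, -1.05 ± 0.10 for Gusb, -4.04 ± 0.31 for Cyp7b1 and -6.12 ± 0.48 for Akr1c18 (adjusted p of 0.000471 or less, edgeR). Cyp7b1 was then 16.5-fold and Akr1c18 69.5-fold lower in mean level. The size of the Akr1c18 gap is uncertain, given the few ob counts stated above. Without ob replicate 5 at 2 mg/kg Kap was at -1.66 ± 0.21, Odc1 at -0.94 ± 0.17 and Gusb at -1.10 ± 0.10. Cyp7b1 was at -3.81 ± 0.25 and Akr1c18 at -5.98 ± 0.51 in that fit, and all 5 were still called (adjusted p of 0.00011 or less, edgeR). The Kap call at 0.5 mg/kg (adjusted p = 0.0436, edgeR) was lost in 13 of 44 alternatives, at adjusted p of 0.053 to 0.097 (range over all 44, 6.3e-06 to 0.097). In these the low-count filter was left out, replicate number was a block (adjusted p = 0.0594), or 1 of the 12 compared libraries other than ob replicate 3 was left out. The Kap and Odc1 calls for the higher dose were lost in a fit of the 2 groups alone (adjusted p = 0.0664 and 0.0557, the highest over 44 alternatives; the lowest were 4.48e-10 and 7.47e-06).

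Whether a dose changed the genes by unequal amounts in ob and b6j was tested as an interaction, the log2 difference in ob minus that in b6j. For 2 mg/kg, 1 of the 5, Cyp7b1, was called, against 2.07% of tested genes (1.01% with a negative interaction and 1.06% with a positive one). Cyp7b1 fell in ob and not in b6j kidneys, with an interaction of -1.68 ± 0.40 (adjusted p = 0.0193, edgeR). Without ob replicate 5 the value was -1.45 ± 0.30 (adjusted p = 0.00368). In a fit of the 4 groups alone the call was lost (adjusted p = 0.0513, range over 44 alternatives 0.0032 to 0.0513). Odc1 went the other way, with a smaller fall in ob than in b6j kidneys, at 1.01 ± 0.31, and missed the threshold (adjusted p = 0.0743, edgeR). Without ob replicate 5 it was called (1.21 ± 0.23, adjusted p = 0.00122), as with limma-voom, with DESeq2 and without b6j replicate 6 at 2 mg/kg (adjusted p = 0.000576, 0.0206 and 0.046; range over 44 alternatives 0.000576 to 0.124). The interactions of Kap (-0.55 ± 0.46), Gusb (0.13 ± 0.14) and Akr1c18 (-1.58 ± 0.64) were not called (adjusted p = 0.566, 0.682 and 0.193, edgeR).

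At 0.5 mg/kg the interaction was called for 0 of the 5 by edgeR and by DESeq2, against 0.385% of tested genes. At an unadjusted p below 0.05 there were 2, Odc1 (0.89 ± 0.31, adjusted p = 0.308) and Gusb (0.48 ± 0.14, adjusted p = 0.148), and limma-voom called both (adjusted p = 0.0123 and 0.018). Odc1 was also called without ob replicate 5 at 2 mg/kg (adjusted p = 0.0316) and in a fit of the 4 groups alone (adjusted p = 0.0195). The adjusted p of Odc1 ran from 0.0123 to 0.594 over 44 alternatives and that of Gusb from 0.018 to 0.297.

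Ordered by mean level, the groups formed few separate steps. For Kap the order was b6j untreated, b6j 0.5, b6j 2, ob 0.5, ob untreated and ob 2 mg/kg, and neighbours were apart only between b6j 0.5 and b6j 2 and between ob untreated and ob 2. Odc1 had the same order, with 1 step without overlap, between b6j 0.5 and b6j 2. Gusb had 1 such step, between the lowest b6j group (0.5 mg/kg) and the highest ob group (2 mg/kg). Cyp7b1 and Akr1c18 each had 2, between the lowest b6j group and ob at 0.5 mg/kg and between untreated ob and ob at 2 mg/kg. All other neighbouring groups overlapped.

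Other kidney genes known to respond to androgen were taken from a list of 11 that it raises and 9 that it lowers. Like the other gene lists below, it was chosen with earlier results of these data known. Its counts are thus a description and no independent support for the members' differences. Before cadmium, 8 of the 11 androgen-raised genes were called lower in ob kidneys and 0 higher, and 8 of the 9 androgen-lowered genes were called higher and 0 lower, with a median of 2.24. Among tested genes 6.6% were called higher and 8.93% lower, and the untreated counts of every list below have these same shares beside them. Among the raised genes, Cyp4a12a, a fatty acid hydroxylase of male mice, stood at 271 ± 44.3 CPM (SD, n = 6) in b6j and 28.8 ± 7.11 CPM in ob kidneys (log2 difference -3.23 ± 0.26, adjusted p = 3.19e-11, edgeR). Slco1a1, an organic anion uptake transporter, was at -3.01 ± 0.44, Acsm3, a medium-chain acyl-CoA synthetase, at -2.83 ± 0.32, and Nudt19 at -1.18 ± 0.18. Among the lowered genes, the prolactin receptor Prlr was at 4.22 ± 0.35, the efflux transporter Abcc4 at 2.24 ± 0.15, Kynu, an enzyme of tryptophan breakdown, at 3.53 ± 0.45, and the glutathione transferase Gsta2 at 1.66 ± 0.15. The androgen-raised count ran from 7 to 8 lower and 0 to 1 higher over all alternatives and left-out libraries, and the androgen-lowered count was 8 higher in each of them.

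**Figure D3:**
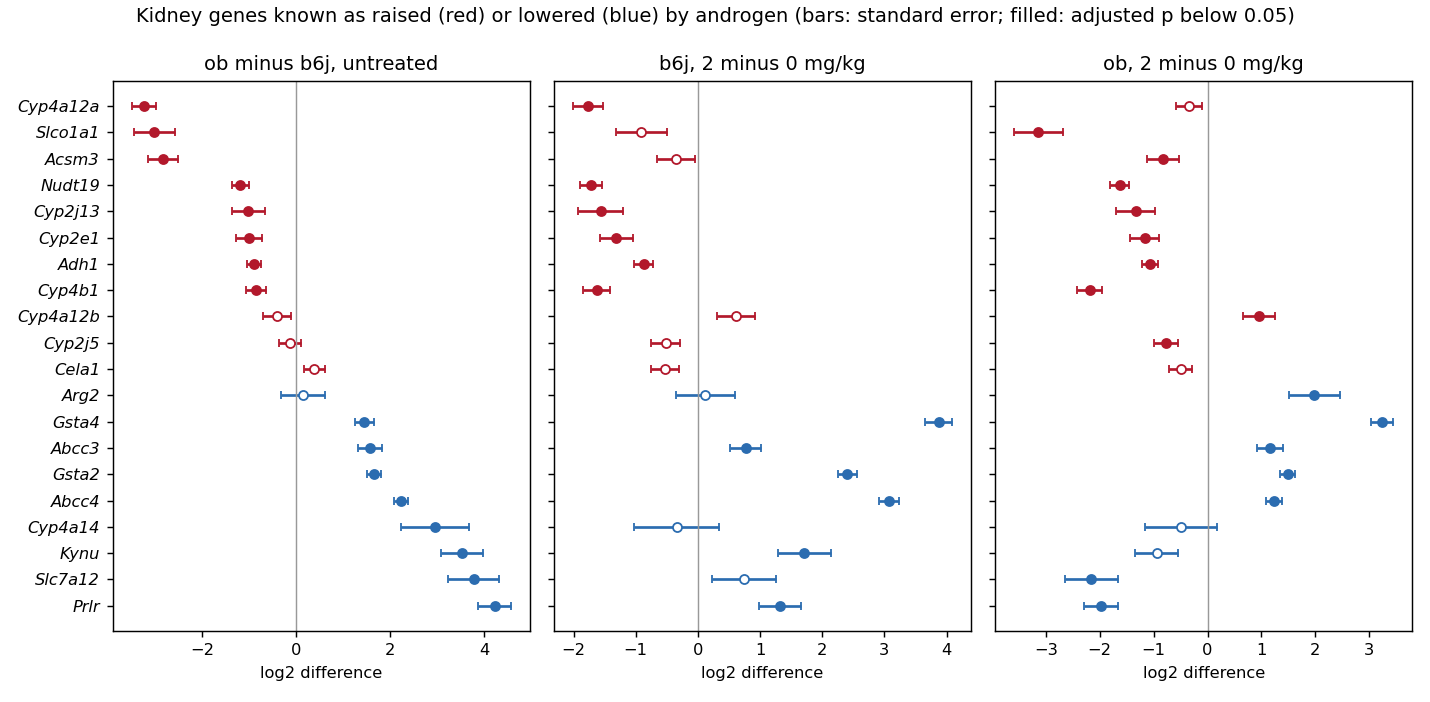
Log2 differences with standard errors (bars) of the 11 kidney genes known as raised (red) and the 9 known as lowered (blue) by androgen, between untreated genotypes and at 2 mg/kg within each genotype. Filled points passed an adjusted p of 0.05. In the left panel 8 red genes are called below 0 and 8 blue genes above 0, while the right panel has Prlr and Slc7a12 called below 0 beside 5 blue genes above 0.

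With 2 mg/kg of cadmium in b6j kidneys, 6 of the 11 androgen-raised genes were called lower and 0 higher (median -0.91), and 6 of the 9 androgen-lowered genes higher and 0 lower (median 1.32). Here 11.4% of tested genes were called lower and 12.3% higher. In ob kidneys at 2 mg/kg 8 of the 11 raised genes were called lower and 1, Cyp4a12b, higher (median -1.07), while of the 9 lowered genes 5 were called higher and 2 lower (median 1.16). Background shares in ob were 18% lower and 20.4% higher. The 5 rising genes of the androgen-lowered list at 2 mg/kg in ob kidneys were Gsta2, Gsta4, Abcc3, Abcc4 and Arg2. Arg2 was not called without ob replicate 5 (adjusted p = 0.155, edgeR). The other 4 are also known targets of the oxidative stress factor NRF2, whose part was not tested. In ob kidneys at 2 mg/kg Gsta4 stood at 3.24 ± 0.21 on the log2 scale and Abcc4 at 1.24 ± 0.15. The falling genes were Prlr (-1.98 ± 0.31, adjusted p = 5.57e-06, edgeR) and the amino acid transporter Slc7a12 (-2.16 ± 0.49, adjusted p = 0.000732, edgeR). Without ob replicate 5 the androgen-lowered list had 4 called higher and 4 lower in ob kidneys, with a median of 0.42, and the raised list 0 higher and 8 lower. Cyp4a12b was then at 0.41 ± 0.23 (adjusted p = 0.17, range over 44 alternatives 0.00399 to 0.226). In b6j kidneys the raised list had 1 called higher and 9 lower in the fit without that library, with the median still at -0.91.

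Within the raised list, Cyp4a12a and Slco1a1 took opposite interactions at 2 mg/kg. Cyp4a12a fell from 271 ± 44.3 to 79 ± 19.2 CPM in b6j kidneys and stood at 28.8 ± 7.11 and 22.7 ± 7.17 CPM in ob kidneys (SD, n = 6), an interaction of 1.43 ± 0.34 (adjusted p = 0.0201, edgeR). Slco1a1 stood at 442 ± 71 and 236 ± 110 CPM in b6j kidneys and fell from 55 ± 32.5 to 6.27 ± 4.18 CPM in ob kidneys, an interaction of -2.23 ± 0.59 (adjusted p = 0.0385, edgeR). In b6j kidneys Slco1a1 was at -0.91 on the log2 scale (adjusted p = 0.104, edgeR), or called without ob replicate 5 (adjusted p = 0.0376, range over 44 alternatives 0.00811 to 0.209, with a call in 4). Its interaction was -1.99 ± 0.54 without ob replicate 5 (adjusted p = 0.0249) and lost its call in 15 of 44 alternatives, the replicate block, the compared groups alone and limma-voom among them (range over all 44, 0.0101 to 0.197). The other 12 each left out 1 library: untreated ob replicate 1, 3 or 5, ob replicate 1 or 3 at 2 mg/kg, untreated b6j replicate 2, 3, 5 or 6, or b6j replicate 4, 5 or 6 at 2 mg/kg. At 0.5 mg/kg 0 of the 11 raised genes were called in either genotype by edgeR, with an unadjusted p below 0.05 for 2 in b6j and 1 in ob kidneys. Over all alternatives, DESeq2 and limma-voom among them, at most 2 were called lower in b6j and at most 1 higher in ob kidneys. Of the lowered genes 3 were called higher in each genotype, and these were Gsta2, Gsta4 and Abcc4 in both. Among all tested genes 0.297% were called higher and 0.0275% lower in b6j kidneys at 0.5 mg/kg. In ob kidneys at that dose the shares were 3.55% and 0.737%. At 2 mg/kg 5 of the 9 lowered genes had a called negative interaction and 0 a positive one, against 1.01% and 1.06% of tested genes. These were Prlr, Abcc4, Kynu, Slc7a12 and Gsta2, and the count ran from 3 to 6 over all alternatives. Prlr had an interaction of -3.31 ± 0.45 (adjusted p = 4.75e-05, edgeR), as it rose in b6j kidneys (1.32, adjusted p = 0.00268, edgeR) and fell in ob kidneys.

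Of 15 listed genes of androgen signalling, 6 were called lower and 0 higher in untreated ob kidneys. Srd5a2, the steroid reductase that makes dihydrotestosterone from testosterone, stood at 10.9 ± 3.98 CPM in b6j and 2.96 ± 0.651 CPM in ob kidneys (log2 difference -1.87 ± 0.26, adjusted p = 1.62e-06, edgeR). Srd5a2 also fell with 2 mg/kg, at -1.74 in b6j (adjusted p = 2.97e-06, edgeR) and -0.81 in ob kidneys (adjusted p = 0.0136, edgeR). The mean in ob kidneys was then 1.69 CPM. Without ob replicate 5 the ob value was -0.64 ± 0.25 (adjusted p = 0.0384, edgeR). The ob call was lost in 2 of 44 alternatives, the compared groups alone and limma-voom (adjusted p over all 44, 0.00702 to 0.174). The chaperones Hsp90aa1 (-0.70 ± 0.10) and Hsp90ab1 (-0.62 ± 0.09), which hold steroid receptors ready for ligand, and the corepressor Ncor1 (-0.45 ± 0.07) were the next by p-value between untreated genotypes.

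Around Odc1, the other polyamine genes did not share its gap between untreated genotypes. Of 12 tested, 2 were called higher and 2 lower between untreated genotypes, against 6.6% and 8.93% of tested genes, with a median of 0.06. Spermidine synthase Srm (-0.41 ± 0.09) and the Odc1 inhibitor antizyme Oaz1 (-0.25 ± 0.08) were lower in ob kidneys. Polyamine oxidase Paox (0.40 ± 0.10) and Amd1 (0.33 ± 0.10), which supplies the aminopropyl donor of spermidine synthesis, were higher. Sat1, which acetylates polyamines for export, rose with 2 mg/kg in both genotypes (0.40 ± 0.08 in b6j and 0.55 ± 0.08 in ob), and the antizymes Oaz1 and Oaz2 fell in both. Arg2, which makes ornithine, the substrate of Odc1, was at 1.98 ± 0.47 in ob kidneys at 2 mg/kg (adjusted p = 0.00112, edgeR). It was at 0.42 ± 0.23 and not called without ob replicate 5 (adjusted p = 0.155, range over 43 alternatives 0.000303 to 0.155), and its call was also lost with the compared groups alone and with limma-voom. In b6j kidneys Arg2 was at 0.12 ± 0.47 (adjusted p = 0.894, edgeR).

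Around Gusb, 7 of 16 other lysosomal glycosidases were called lower and 1 higher in untreated ob kidneys, with a median of -0.16. The galactosidases Galc (-0.54 ± 0.06) and Glb1 (-0.68 ± 0.08) and the fucosidase Fuca1 (-0.29 ± 0.07) were among those called lower, each with a smaller gap than the -1.18 of Gusb. With 2 mg/kg in ob kidneys 6 of the 16 were called higher and 1 lower, with a median of 0.07, against 20.4% and 18% of tested genes, and without replicate 5 they were 6 and 3. In b6j kidneys at 2 mg/kg 3 were called higher and 0 lower, against 12.3% and 11.4% of tested genes.

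Around Cyp7b1, 8 genes of oxysterol and bile acid synthesis were tested, and 2 were called lower and 1 higher in untreated ob kidneys. The racemase Amacr (-1.15 ± 0.25) and the oxidase Acox2 (-0.47 ± 0.13) were lower and the cholesterol hydroxylase Cyp46a1 (0.61 ± 0.20) higher. In ob kidneys at 2 mg/kg, where Cyp7b1 fell, 5 of the 8 were called lower and 2 higher, against 18% and 20.4% of tested genes (5 and 1 without replicate 5). Among 17 tested steroid enzymes 5 were called lower and 0 higher between untreated genotypes. Hsd17b11 (-1.67 ± 0.15) and Hsd17b2 (-1.74 ± 0.17), which oxidize sex steroids, and Hsd11b1 (-1.39 ± 0.17), which regenerates active glucocorticoid, led by p-value, followed by Hsd17b12 at -0.29 ± 0.05.

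Around Akr1c18, its own family did not move as a block. Of 7 close copies, 4 were called higher in untreated ob kidneys (Akr1c12, Akr1c13, Akr1c19 and Akr1c20) and 1 lower (Akr1c14). Akr1c14 stood at 259 ± 41.3 CPM in b6j and 67.7 ± 13.5 CPM in ob kidneys (SD, n = 6; log2 difference -1.93 ± 0.31, adjusted p = 1.92e-05, edgeR), whereas Akr1c13 stood at 12.2 ± 0.893 and 29.6 ± 3.81 CPM (1.28 ± 0.10, adjusted p = 2.41e-11, edgeR). Akr1c12, Akr1c13 and Akr1c19 rose with 2 mg/kg in both genotypes, where Akr1c18 fell. Akr1c12 went from 3.23 ± 0.554 to 20.1 ± 3.08 CPM in b6j kidneys and from 5.5 ± 0.766 to 37.2 ± 10.1 CPM in ob kidneys. Akr1c21, the most abundant copy, was at 1276 ± 73.7 CPM in untreated b6j kidneys and was called lower in ob kidneys at 2 mg/kg (-0.96 ± 0.34, adjusted p = 0.0249, edgeR), where its lowest library held 27 CPM. In b6j kidneys it was at -0.36 ± 0.34 (adjusted p = 0.486, edgeR). Akr1c21 was called lower in both without ob replicate 5, at -0.70 ± 0.11 in ob (adjusted p = 6.55e-06, range over 44 alternatives 6.55e-06 to 0.22) and -0.37 ± 0.11 in b6j (adjusted p = 0.00685, range 0.00685 to 0.613), and the test of the difference between both responses did not pass (interaction -0.59 ± 0.48, adjusted p = 0.553, edgeR).

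**Figure D4:**
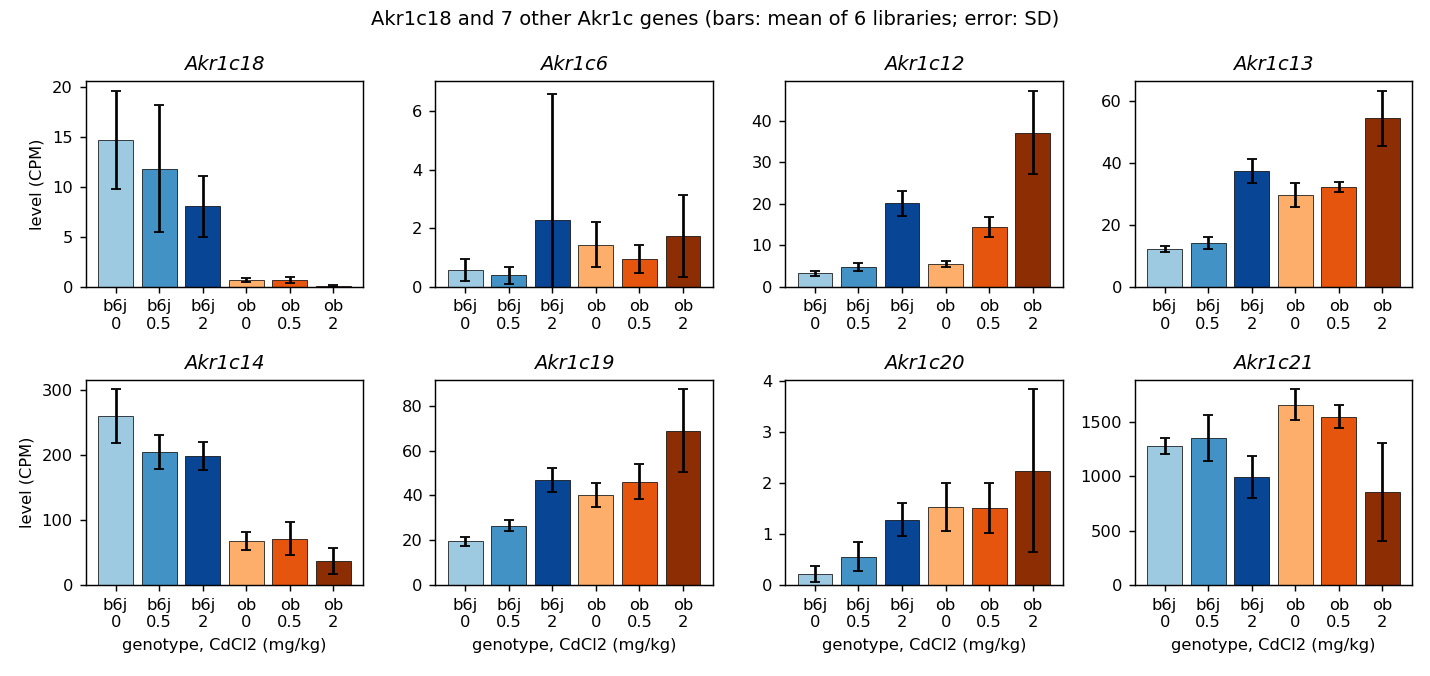
Mean level in CPM of Akr1c18 and 7 close copies in the 6 groups (bars, from 0), with the SD of 6 libraries (error bars). Akr1c18 and Akr1c14 are lower in every ob group than in every b6j group, while Akr1c12 and Akr1c13 have their highest bars in ob kidneys at 2 mg/kg.

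Markers of the late proximal tubule moved with these results. Of 8 such markers 4 were called lower and 1 higher in untreated ob kidneys, and their summed level was 3059 to 4813 CPM, against 7348 to 9584 CPM in untreated b6j kidneys. Slc22a7, an organic anion transporter that is itself androgen-dependent in mice, had the widest gap (log2 difference -6.31 ± 0.36). The 10 early proximal markers gave 1 called higher and 1 lower, with sums of 13604 to 16864 CPM in ob and 15476 to 18639 CPM in b6j kidneys. At 2 mg/kg the late proximal sum was 3471 to 5145 CPM in b6j and 779 to 2647 CPM in ob kidneys, and the early proximal sum was 9280 to 12751 CPM and 3274 to 12964 CPM. No listed marker of either segment was at 0 in any group. The part of these cells in the members' differences was not tested.

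Of 8 tubular injury markers, 6 were called higher in b6j and 8 in ob kidneys at 2 mg/kg, and 0 were lower. Their summed level was 645 to 896 CPM in untreated b6j, 983 to 1332 CPM in untreated ob, 1671 to 1929 CPM in b6j at 2 mg/kg and 2178 to 16425 CPM in ob at 2 mg/kg. All 6 podocyte markers were called higher in untreated ob kidneys, with sums of 370 to 424 CPM against 218 to 281 CPM, as were 5 of 6 endothelial markers, with sums of 442 to 513 CPM against 266 to 366 CPM. Their part in the members' differences was not tested. Of other cell types, 0 of 8 distal nephron, 0 of 7 immune, 0 of 6 liver and 0 of 2 tested male reproductive tract markers were called between untreated genotypes, and 1 of 8 fat and 1 of 5 tested adrenal markers were higher. At 2 mg/kg the counts in b6j kidneys were 1 distal lower, 4 immune higher, 1 liver higher and 1 lower, 3 fat higher and 4 adrenal higher. In ob kidneys they were 7 distal lower, 4 immune higher, 1 liver higher and 1 lower, 1 fat higher, 2 adrenal higher, 4 podocyte lower and 6 endothelial lower. Over all tested genes 12.3% were called higher and 11.4% lower in b6j kidneys at 2 mg/kg, and 20.4% and 18% in ob kidneys. Between untreated genotypes these shares were 6.6% and 8.93%. The ob counts without ob replicate 5 were 5 distal, 5 podocyte and 4 endothelial lower, 5 immune higher and 0 fat higher, and the b6j counts in that fit were 3 distal lower, 3 liver higher and 5 adrenal higher. Without b6j replicate 3 at 2 mg/kg, 2 adrenal and 2 fat markers were called higher in b6j kidneys, and 3 liver markers. The 6 liver markers summed to 73.7 to 1089 CPM in b6j kidneys at 2 mg/kg, with a median of 88.6 CPM. Their part in the members' levels was not tested. Of 7 general tubule markers 2 were called lower between untreated genotypes, 3 in b6j and 2 in ob kidneys at 2 mg/kg, and 0 higher. Of the adrenal cortex markers Cyp11b1, Cyp11b2 and Nr5a1 were at 0 in both untreated groups, and of the male reproductive tract markers Lcn5, Prm2 and Tnp1 were.

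Libraries of the same group that were high in 1 member were compared for the others, after the mean of each group was taken off its log2 CPM. Of 10 pairs, 2 were correlated over the 36 libraries at an adjusted p below 0.05 (permutation within groups, two-sided, Benjamini-Hochberg over 10 pairs). Kap and Odc1 had r = 0.76 (permutation p = 0.00143, adjusted p = 0.012) and Spearman's rho = 0.52 (permutation p = 0.00276, adjusted p = 0.0138). Odc1 and Cyp7b1 had r = 0.73 (permutation p = 0.00241, adjusted p = 0.012) and rho = 0.57 (permutation p = 0.00166, adjusted p = 0.0138). Both rested in large part on a single library, ob replicate 5 at 2 mg/kg, which was lowest in Kap, Odc1 and Cyp7b1. Without the 2 libraries farthest from the median of the first gene, r fell to 0.41 and 0.45, and without replicate 5 alone to 0.37 (adjusted permutation p = 0.0511) and 0.40 (adjusted permutation p = 0.07). Cyp7b1 and Akr1c18 had r = 0.37 (permutation adjusted p = 0.403) and rho = 0.48 (adjusted p = 0.0265), with r = 0.50 without replicate 5 (adjusted permutation p = 0.0445), and r was above 0 in each of the 6 groups. Odc1 and Gusb went from r = 0.09 to 0.47 without replicate 5 and then also passed (adjusted permutation p = 0.0445). Kap and Cyp7b1 went from r = 0.68 (permutation adjusted p = 0.186) to 0.09 (adjusted permutation p = 0.839).

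**Figure D5:**
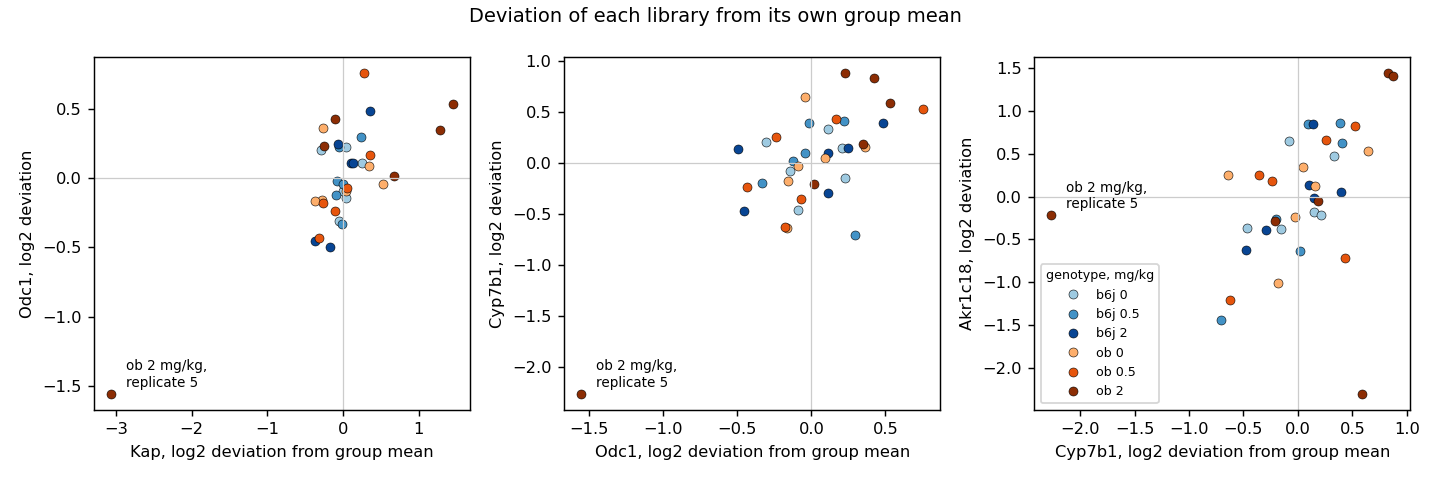
Deviation of each of the 36 libraries from the mean of its own group, on the log2 CPM scale, for Kap and Odc1, Odc1 and Cyp7b1, and Cyp7b1 and Akr1c18. In the left and middle panels ob replicate 5 at 2 mg/kg lies far below the other 35 libraries on both axes, and in the right panel it lies far to the left.

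The genes most like each member were taken by Pearson's r of log2 CPM over the 36 libraries among the 11031 genes whose level averaged 5 CPM or more. The libraries share their groups, so group differences enter these values, and they are given as a description. Kap was most like Amacr (r = 0.978), C1qtnf3 (0.976), Acat1 (0.975), Csad (0.972) and Tmem178 (0.971). Odc1 was most like Agps (0.960), Tmco3 (0.956), Vps8 (0.952), Ldhd (0.952) and Cox15 (0.947). Gusb had the lowest values, with Slc6a15 (0.900), Abhd2 (0.894), Znrf2 (0.894), Me1 (0.889) and Gm6300 (0.885).

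Cyp7b1 was most like Acsm3 (0.973) and Akr1c14 (0.965), both named above, then Ghr, the growth hormone receptor (0.950), Gnai1 (0.948) and Fads1 (0.948). Akr1c18 was most like Slc22a19 (0.947), Cyp7b1 (0.936), Lpl (0.934), Pdk3 (0.921) and Slc22a7 (0.919). Once group means were taken off, the likeness of Kap to Amacr was 0.943, or 0.762 without ob replicate 5 at 2 mg/kg, and that of Cyp7b1 to Akr1c14 was 0.929, or 0.856. Those of Gusb lay between 0.168 and 0.325, or 0.151 and 0.560 without that library. Akr1c18 had 0.615 with Slc22a19, or 0.619, and 0.078 to 0.366 with the other 4 genes. Cyp7b1 was the only one of the 5 members found among the 5 genes most like another member.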

How the data were processed

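Kidney mRNA was sequenced from 36 libraries in 6 groups of 6, from RNA with an integrity number above 6.5 per the labels' protocols. The deposited values are counts per gene, made by the authors with featureCounts 1.4.6-p2 on Ensembl 96 gene models without a strand option, per the file headers. The submitters' processing notes also name bcl2fastq, Trimmomatic, FastQC, STAR and GRCm38. A joined table of 36 columns was not used.

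Counts were analysed as deposited. Of 55536 genes, 20448 had no count and 18180 passed edgeR's filterByExpr. No library pair was identical. edgeR 4.0.16 (R 4.3.3) scaled libraries by TMM (factors 0.892 to 1.12) and fitted all 6 groups with glmQLFit, with 11 comparisons tested by glmQLFTest and Benjamini-Hochberg adjustment at 0.05. A standard error is the log2 difference divided by the square root of F. Within-group correlations used log2 CPM with a prior count of 0.5 and 100000 permutations within groups. The fit and the correlations were tested on simulated data. Promoters come from the RefSeq table of GRCm38.p6.

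Alternatives were RLE scaling, library size only, no filter, a mean of at least 1 CPM, a replicate block, the compared groups alone, limma 3.58.1 voom with sample weights, DESeq2 1.42.0 and each library left out. List counts and values of named list genes under these settings, and likeness without ob replicate 5 at 2 mg/kg, were added after seeing the data. The members and all gene lists were chosen with earlier results of these data known. Named were the 5 members, up to 4 tested genes of each list with the smallest p between untreated genotypes, the Akr1c family, and the 5 genes of at least 5 CPM most correlated with each member. Sat1, Oaz2, Arg2, Gsta4, Abcc3, Slc7a12, Cyp4a12b and Hsd17b3 were named after their values were seen. Some listed genes enter the list counts but are not reported here by name. The level given for 3 counts marks where a gene is read as near absent, and it does not measure counting error.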

Additional observations from a re-analysis of the deposited data

Results flagged for a closer look

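Each of the 30 combinations of a member and a group of 6 libraries was examined for a library whose gap to its nearest neighbour exceeded Dixon's limit for 6 samples, set on the gap over the range of the group. There were 2, and chance gives about 1 in 20 groups. Kap stood at 27477 CPM in b6j replicate 6 at 0.5 mg/kg, with the other 5 libraries at 21786 to 23370 CPM and a gap of 0.722 of the range. Gusb stood at 78.1 CPM in untreated b6j replicate 3, with the other 5 at 49 to 59.2 CPM and a gap of 0.648 of the range. Of the 10 tests of a difference between genotypes in the response of a member, 1 passed. Cyp7b1 fell in ob kidneys at 2 mg/kg and was not called in b6j kidneys, with a difference of -1.68 between the log2 responses (adjusted p = 0.0193, edgeR).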

How the results depend on the processing

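Of 2418 values of single members under alternatives, 2323 kept their direction and side of the threshold, 38 lost a call, 39 gained one and 18 changed sign. The sign changes were all near 0 in uncalled differences. With library size only, Kap was at -0.03 and Cyp7b1 at -0.04 in ob at 0.5 mg/kg, and with limma-voom Cyp7b1 was at -0.01 between b6j doses and Gusb at -0.04 between ob doses. With 1 library left out the ranges were -0.06 to 0.13 and -0.02 to 0.06 for the latter pair, and -0.01 to 0.18 for Kap, -0.06 to 0.20 for Cyp7b1 and -0.07 to 0.28 for Akr1c18 in ob at 0.5 mg/kg. Cyp7b1 ranged from -0.22 to 0.04 for the interaction at 0.5 mg/kg.

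Members called moved as follows, and the cause was not tested. In a fit of the compared groups alone, which has fewer samples, 1 was called at 0.5 mg/kg in each genotype, 1 between ob doses, 3 between genotypes at 2 mg/kg, and 1 and 0 for the interactions at 0.5 and 2 mg/kg. With limma-voom 1 was called in b6j at 0.5 mg/kg and 2 for each interaction, and with DESeq2 2 for the interaction at 2 mg/kg. With library size only 1 was called in b6j at 2 mg/kg. With 1 library left out the counts ran from 1 to 3 in b6j at 2 mg/kg, 0 to 1 for the interaction at 0.5 mg/kg and 1 to 2 at 2 mg/kg.

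Without ob replicate 5 at 2 mg/kg, within-group r was 0.37 for Kap and Odc1, 0.40 for Odc1 and Cyp7b1, 0.09 for Kap and Gusb, 0.47 for Odc1 and Gusb, -0.01 for Odc1 and Akr1c18, 0.10 for Gusb and Cyp7b1 and 0.50 for Cyp7b1 and Akr1c18. With a prior count of 2 the last was 0.45, and with library size only Gusb and Akr1c18 had 0.01.

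Replicate numbers did not pair the libraries: same-numbered libraries of different groups had a mean correlation of 0.00473 (-0.334 to 0.412, 18 of 90 over 0.1). With replicate number as a block, Kap between genotypes at 0.5 mg/kg was at -1.01 (adjusted p = 0.0594) and Gusb in ob at 2 mg/kg at 0.24 (adjusted p = 0.0355, edgeR), and no other member call changed.

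Counts over all genes moved by over 1.5 times in these cases. Between untreated genotypes they were 2822, 5629 with limma-voom and 4781 without that library. In b6j they were 59, 232 and 157 at 0.5 mg/kg, 4305 and 6949 (limma-voom) at 2 mg/kg, and 3143, 5176 and 5267 between doses. In ob they were 779, 2337 and 1780 at 0.5 mg/kg. Between genotypes at 0.5 mg/kg they were 1753, 3929 and 3522, and for the interactions 70, 805 and 254, and 376, 1075 and 758. In the compared groups alone they were 3880 in place of 6976 in ob at 2 mg/kg, 1889 in place of 5406 between ob doses, 461 in place of 2987 between genotypes at 2 mg/kg, and 194 for its interaction. With library size only the median over all genes moved to 0.161 between untreated genotypes, 0.119 in b6j at 2 mg/kg and between b6j doses, -0.110 in ob at 0.5 mg/kg and 0.124 between ob doses. The share of calls that were higher went from 42.5% to 77.7%, 51.8% to 73.3%, 50.8% to 77.8%, 82.8% to 39.6% and 51.3% to 71.9% in these, from 47.5% to 61.4% and 48.1% to 59.0% between genotypes at 0.5 and 2 mg/kg, and from 95.7% to 73.2% and 51.3% to 21.5% for the interactions.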

Other observations

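Hsd17b3, the dehydrogenase that forms testosterone from androstenedione and is best known in testis, was among the listed steroid enzymes and was picked out after its values were seen. It had 0 counts in all 6 untreated ob libraries, and 3 counts over that group would be 0.0152 CPM. It stood at 0.584 ± 0.367 CPM (SD, n = 6) in ob kidneys at 0.5 mg/kg and 0.506 ± 0.282 CPM at 2 mg/kg. At 2 mg/kg the level was at least 33.2-fold higher than that floor, or 37.8-fold without replicate 5. In b6j kidneys it stood at 0.00522 ± 0.0128 CPM untreated, 0.206 ± 0.238 CPM at 0.5 mg/kg and 0.185 ± 0.167 CPM at 2 mg/kg. The rise was called in ob at 0.5 mg/kg (adjusted p = 8.49e-05), in ob at 2 mg/kg (adjusted p = 1.76e-05) and in b6j at 2 mg/kg (adjusted p = 0.0041, all edgeR). These levels are far below those of Kap or Odc1.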
